A study of Mus musculus with 24 samples.

Results

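The RNA of 10 named temperature-responsive genes was followed in the inguinal fat pad of mice over genotype and circadian time (CT, in hours). They are 2 cold-inducible genes (Cirbp and Rbm3), 7 genes of cytosolic heat shock proteins and their cochaperones (Hsph1, Dnajb1, Dnaja1, Hspa8, Hsp90aa1, Hsp90ab1 and Hspb1) and 1 gene of an endoplasmic reticulum (ER) chaperone, Hspa5. A gene was measured by the probe set that the array's annotation assigns to that symbol alone, and where there were several, by the one with the highest mean over the arrays. This gave a value for 9 of the 10 genes, among 19938 genes in all; Hsp90ab1 was not analysed here. The knockout mice (Ad-Bmal1-/-) carried 1 aP2-Cre transgene and floxed Bmal1 alleles (aP2-Cre+/- Bmal1fx/fx), and the controls carried the same floxed alleles (Bmal1fx/fx). Both genotypes were on a C57BL/6J background after 6 or more generations of crossing, ate regular chow, had been in constant darkness for 36 h before collection began and were fasted for 24 h before death. Pads were collected at CT0, where the subjective day begins, and then at CT6, CT12 and CT18, with 3 biological replicates of each genotype at each time, which makes 24 arrays. The aP2 promoter drives the recombinase in adipocytes, and whether it also does so in other cells of the pad was not tested here. The RNA came from the whole pad with its vessel, immune and stromal cells. The animals' ages were not given in the sources used here.

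Heat shock proteins are chaperones that hold, fold or release other proteins, and many of their genes are switched on by the transcription factor HSF1 when proteins unfold. Cirbp and Rbm3 encode RNA-binding proteins that accumulate when cells cool slightly, and in mice both kinds of RNA are known to follow the daily rhythm of body temperature, in opposite phase. Bmal1 (gene symbol Arntl), the target of the knockout, is the partner of CLOCK in the factor that drives the molecular clock. ER chaperones such as Hspa5 answer to another sensor, the unfolded protein response.

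All values are log2 expression, so that a difference of 1 is a doubling, and an adjusted p is from limma, with Benjamini-Hochberg adjustment over all 19938 genes and a threshold of 0.05. Median expression lay between 6.46 and 6.56 on every array. Arntl itself did not separate the genotypes over the day, with a knockout minus control mean difference of 0.01 ± 0.08 (SE, limma adjusted p = 0.997). At CT0 it had 7.51, 7.30 and 7.49 on knockout arrays, against 7.97, 7.97 and 7.97 on control arrays, and at CT6 the order was the other way, with 7.08, 6.90 and 6.88 on knockout arrays and 6.82, 6.82 and 6.54 on control arrays. At CT12 Arntl had 6.46, 6.89 and 6.87 on knockout arrays and 6.75, 6.04 and 6.22 on control arrays. There knockout replicate 1 was the lowest of its group and control replicate 1 the highest of its own. At CT18 it had 7.43, 7.29 and 7.07 on knockout arrays and 7.04, 7.38 and 7.55 on control arrays. Whether the Arntl probes lie in the floxed part is not given in the sources used here. At CT12 and CT18, 4 arrays lay nearer the other genotype for most such genes, 1 of them by a small margin: over the 139 genes that differed by genotype (adjusted p under 0.05) when these 4 were left out, the value was nearer the other genotype's mean of that time for 118 genes on the array labelled knockout replicate 1 at CT12, for 108 on control replicate 1 at CT12, for 105 on knockout replicate 3 at CT18 and for 75 on control replicate 3 at CT18. The last of these is near an even split (54%). With each of the other 20 arrays left out beside these 4, the share over the genes then called was 9.72% to 61.1% with a median of 23.6%, and it was above 50% on 1 array, knockout replicate 2 at CT0 (61.1%). All arrays are kept under their labels here, and the genotype means are also given without the 4. Which animals or labels these arrays come from was not tested.

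RefSeq windows (GRCm38.p6) of 250 bases before to 50 bases after a start site were at hand for 6 of the 10 genes. They were searched on both strands for 2 neighbouring inverted half-sites of HSF1, TTCNNGAA or GAANNTTC, called a heat shock element here. Also searched were the mild cold response element TCCCCGCC and the E-box CACGTG that CLOCK and BMAL1 bind. The last was the ER stress response element, CCAAT and CCACG with 9 bases between. Of 32851 windows, 15.1% held either heat shock element, 5.38% the cold element, 7.15% the E-box and 0.119% the ER element. Matches to a motif are letters, not evidence of binding. A window each of Hsph1, Hspb1, Hspa5 and Cirbp is shown, as an example of each element, with Hsph1 first because its RNA passed the time test; the element in Dnaja1 is given by position only, and the other Cirbp window held no cold element.

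For Hsph1 the strand is minus, at chr5:149636316-149636465, the 150 bases before the second of its 2 start sites, with the heat shock element and the E-box in capitals.
Hsph1: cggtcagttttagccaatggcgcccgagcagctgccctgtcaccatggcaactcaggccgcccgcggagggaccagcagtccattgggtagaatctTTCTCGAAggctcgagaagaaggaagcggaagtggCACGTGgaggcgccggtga
The same window held a second stretch at chr5:149636288-149636300, from 15 to 27 bases after that start, where a TTCNNGAA and a GAANNTTC element overlap, so that all 13 bases are capitals.
Hsph1 after the start: TTCTGGAAAGTTC
For Hspb1 the strand is plus, at chr5:135887769-135887918, the 150 bases before the start, with both GAANNTTC elements in capitals.
Hspb1: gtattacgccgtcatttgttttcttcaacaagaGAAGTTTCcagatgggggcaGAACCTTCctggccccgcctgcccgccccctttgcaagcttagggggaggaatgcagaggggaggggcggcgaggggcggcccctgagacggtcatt
For Hspa5 the strand is plus, at chr2:34771940-34772089, the 150 bases before the start, with the ER stress response element in capitals.
Hspa5: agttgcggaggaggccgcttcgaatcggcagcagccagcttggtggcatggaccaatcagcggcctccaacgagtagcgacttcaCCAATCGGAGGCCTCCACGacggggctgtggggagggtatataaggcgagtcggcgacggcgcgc
For Cirbp the strand is plus, at chr10:80167589-80167688, the first 100 bases of its upstream window, with the mild cold response element in capitals.
Cirbp: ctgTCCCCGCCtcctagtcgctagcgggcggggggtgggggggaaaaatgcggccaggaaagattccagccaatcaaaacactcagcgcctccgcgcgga

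Heat shock elements were found in windows of 3 genes, Hsph1, Hspb1 and Dnaja1. Of these, the Dnaja1 element stood 124 bases before its first start site. Windows of 2 other Dnaja1 start sites held the cold element instead. The Dnajb1 windows held no heat shock element by these letters, and 1 of them held the cold element. Hsph1 was the only one of the 6 genes with an E-box in its window.

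**Figure D1:**
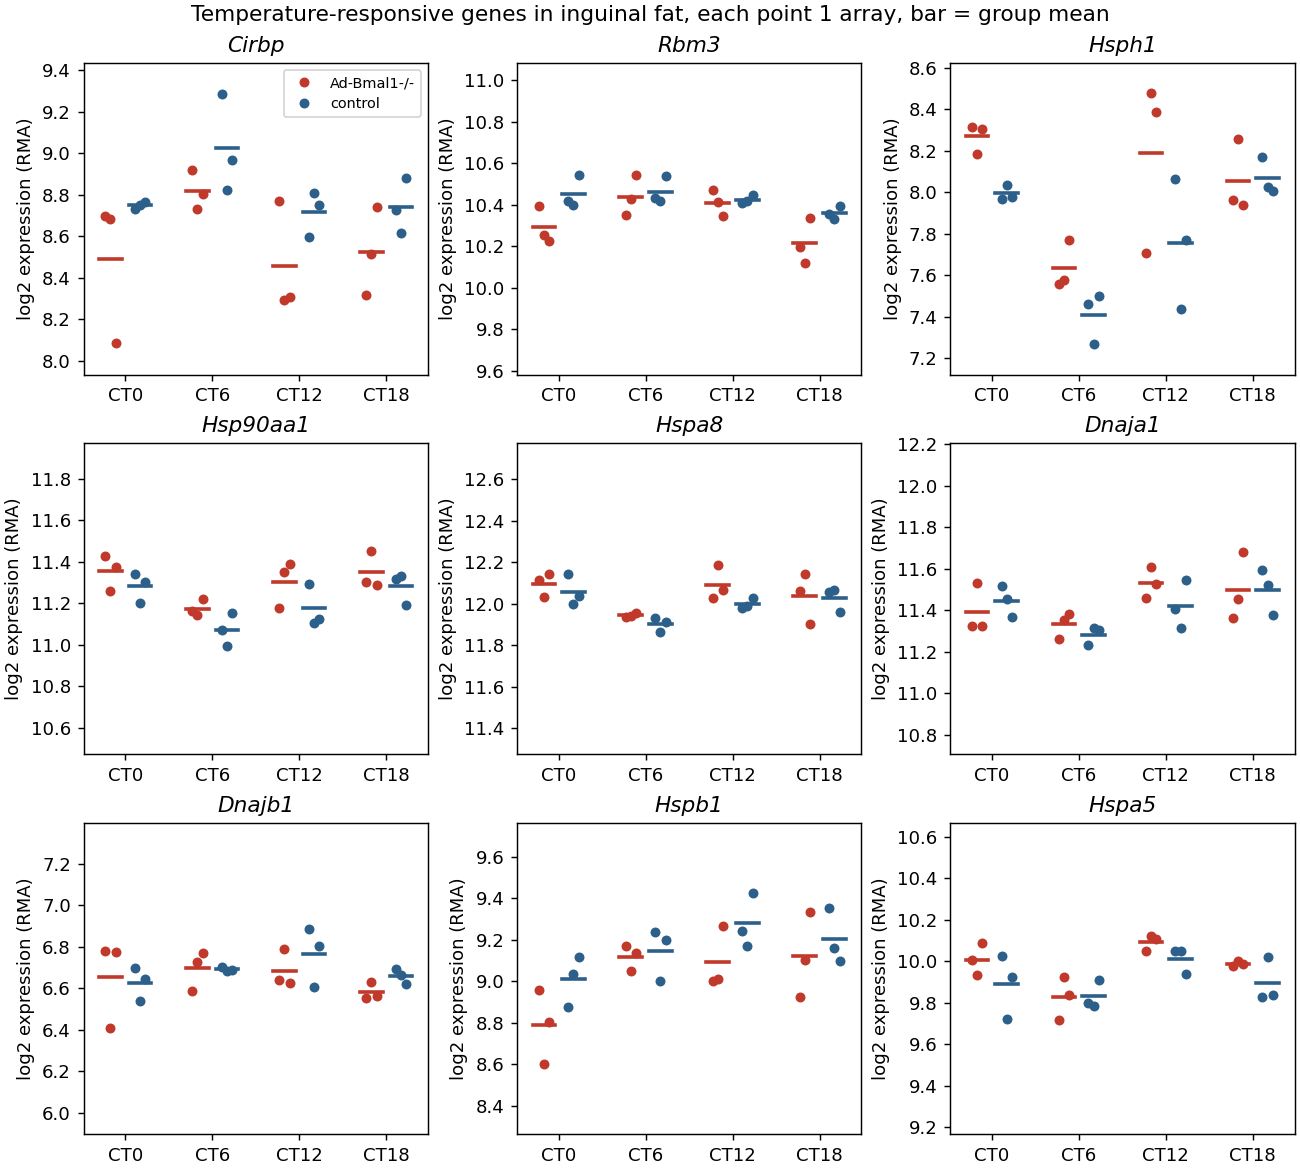
Log2 expression (y axis, RMA values) of the 9 measured genes at each circadian time (x axis), with knockout arrays in red to the left of control arrays in blue; each point is 1 array and each bar the mean of 3. All panels span 1.5 log2 units. Hsph1 moved most, with its lowest values at CT6 in both genotypes.

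Over the day, Hsph1 changed most clearly. Hsph1 encodes HSP110, a nucleotide exchange factor that helps HSP70 release and disaggregate its clients. On knockout arrays it had 8.31, 8.19 and 8.31 at CT0, 7.56, 7.58 and 7.77 at CT6, 7.71, 8.48 and 8.39 at CT12 and 7.96, 8.26 and 7.94 at CT18. On control arrays it had 7.97, 8.04 and 7.98 at CT0, 7.46, 7.27 and 7.50 at CT6, 8.06, 7.44 and 7.77 at CT12 and 8.17, 8.02 and 8.01 at CT18. The 6 arrays of CT6 lay below all 6 of CT0 and all 6 of CT18 (the gap to CT18 was seen for 0.632% of all genes), while those of CT12 were spread over nearly the whole range. Its time course over both genotypes passed the F test across the 4 times (limma adjusted p = 0.0225), as it did for 0.883% of all genes; 1 of the 9 genes passed, and the others had adjusted p values of 0.152 to 0.636.

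In the mid subjective night against the mid subjective day, Hsph1 was higher by 0.54 ± 0.11 (CT18 minus CT6, SE, limma adjusted p = 0.0258), or 1.45-fold. It was the 1 of 9 genes that passed there, beside 0.702% of all genes. The difference was 0.42 ± 0.16 in knockout mice and 0.66 ± 0.16 in control mice, and neither passed in 1 genotype alone (limma adjusted p = 0.321 and 0.197; 0.0201% and 0.0602% of all genes were called there). Between CT6 and CT0, a comparison added after the values were seen, Hsph1 was lower at CT6 by 1.52-fold (-0.61 ± 0.11, SE, limma adjusted p = 0.0262, beside 0.0953% of all genes called). A cosine with a period of 24 h over both genotypes put its peak at CT 19.1, between sampled times. The highest mean over both genotypes was at CT0, with 8.13 against 8.06 at CT18. It was at CT0 in knockout mice and at CT18 in control mice.

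The calls for Hsph1 depended on single arrays. With 1 array left out at a time, the time test gave adjusted p values of 0.00186 to 0.0705 and passed in 21 of 24 fits, and CT18 minus CT6 passed in 16 of 24 (0.00439 to 0.0669). The time test missed the threshold without knockout replicate 1, knockout replicate 2 or control replicate 2 at CT6. CT18 minus CT6 missed it without any 1 of those 3, without control replicates 1 or 3 at CT6, and without knockout replicate 3, control replicate 1 or control replicate 3 at CT18.

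Hsp90aa1 and Hspa8 also had their lowest mean at CT6 in both genotypes. Hsp90aa1, the inducible HSP90 that holds kinases and receptors, had 11.43, 11.26 and 11.38 at CT0, 11.16, 11.14 and 11.22 at CT6, 11.18, 11.35 and 11.39 at CT12 and 11.30, 11.45 and 11.29 at CT18 on knockout arrays. On control arrays Hsp90aa1 had 11.34, 11.20 and 11.30 at CT0, 11.07, 10.99 and 11.15 at CT6, 11.29, 11.11 and 11.13 at CT12 and 11.32, 11.33 and 11.19 at CT18. In each genotype the 3 CT6 arrays lay below those of CT0 and of CT18, as for 0.0401% of all genes, while the 6 arrays of a time overlapped across the genotypes. CT18 minus CT6 was 0.19 ± 0.06, which did not pass (limma adjusted p = 0.107).

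Hspa8, the constitutive HSP70 known as HSC70, lay between 11.94 and 11.95 on knockout arrays and between 11.87 and 11.93 on control arrays at CT6. At CT0 it lay between 12.03 and 12.14 on knockout arrays and between 12.00 and 12.14 on control arrays, so that the 6 arrays of CT6 lay below the 6 of CT0. Such a gap was seen for 2 of the 9 genes, Hspa8 and Hsph1, and for 0.15% of all genes. CT18 minus CT6 was 0.11 ± 0.05 for Hspa8, which did not pass. Its other probe sets were at 0.10 ± 0.05 and 0.04 ± 0.05 in that comparison. In the time test Hspa8 had a limma adjusted p of 0.251.

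The J-domain cochaperones, which hand clients to HSP70, differed from each other. Dnaja1 was lowest at CT6 in both genotypes, between 11.26 and 11.38 on knockout arrays and between 11.23 and 11.31 on control arrays, and CT18 minus CT6 was 0.19 ± 0.06 (limma adjusted p = 0.145). Dnajb1, a cochaperone gene that HSF1 induces strongly in heated cells, stayed between 6.41 and 6.79 on knockout arrays and between 6.54 and 6.89 on control arrays over all times. Its CT18 minus CT6 difference was -0.07 ± 0.06, and it was the 1 gene of the 9 with an unadjusted p above 0.05 in the time test.

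Hspb1, the small heat shock protein HSP27 that keeps unfolding proteins from clumping, had another shape. On knockout arrays it had 8.96, 8.60 and 8.81 at CT0, 9.17, 9.05 and 9.14 at CT6, 9.0, 9.01 and 9.27 at CT12 and 8.93, 9.10 and 9.33 at CT18. On control arrays it had 8.88, 9.03 and 9.12 at CT0, 9.24, 9.0 and 9.20 at CT6, 9.24, 9.17 and 9.43 at CT12 and 9.35, 9.16 and 9.10 at CT18. Its lowest group mean was at CT0 in both genotypes, and within each genotype the arrays of CT12 lay above those of CT0, as for 1.52% of all genes, with an overlap once the genotypes were joined. CT12 minus CT0 was 0.29 ± 0.08 (limma adjusted p = 0.128); 0 of the 9 genes passed in that comparison, beside 0.532% of all genes. Without knockout replicate 2 at CT0, the lowest of the 24 arrays for Hspb1, CT12 minus CT0 was 0.24 ± 0.08 (adjusted p = 0.274).

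Hspa5, the HSP70 of the ER known as BiP, was lowest at CT6 and highest at CT12. On knockout arrays it lay between 9.71 and 9.92 at CT6 and between 10.05 and 10.12 at CT12, against 9.79 to 9.91 and 9.94 to 10.05 on control arrays. The 6 arrays of CT12 lay above the 6 of CT6, a gap that Hspa8 shared and that 0.361% of all genes showed. CT12 minus CT6, added after the values were seen, was 0.22 ± 0.06 (SE, limma adjusted p = 0.267).

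Cirbp and Rbm3 had their highest mean at CT6 in both genotypes, and neither passed the time test. On knockout arrays Cirbp had 8.70, 8.68 and 8.08 at CT0, 8.92, 8.73 and 8.80 at CT6, 8.77, 8.29 and 8.31 at CT12 and 8.32, 8.52 and 8.74 at CT18. On control arrays Cirbp had 8.73, 8.75 and 8.77 at CT0, 9.28, 8.82 and 8.96 at CT6, 8.60, 8.81 and 8.75 at CT12 and 8.73, 8.61 and 8.88 at CT18. Within each genotype the CT6 arrays of Cirbp lay above those of CT0, as for 0.893% of all genes, and they overlapped once the genotypes were joined. CT18 minus CT6 was -0.29 ± 0.11, which did not pass (limma adjusted p = 0.199), and the fitted peak lay at CT 5.59.

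Rbm3 varied less than Cirbp. On knockout arrays it had 10.39, 10.26 and 10.23 at CT0, 10.35, 10.43 and 10.54 at CT6, 10.47, 10.41 and 10.35 at CT12 and 10.19, 10.12 and 10.34 at CT18. On control arrays it had 10.42, 10.40 and 10.54 at CT0, 10.43, 10.42 and 10.54 at CT6, 10.41, 10.42 and 10.45 at CT12 and 10.36, 10.33 and 10.39 at CT18. In both genotypes the arrays of CT18 lay below those of CT6 and of CT12, as for 0.316% of all genes, again with an overlap between the genotypes. The CT6 arrays of Rbm3 overlapped those of CT0 and of CT12 in both genotypes. CT18 minus CT6 was -0.16 ± 0.05 (limma adjusted p = 0.135).

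By shape alone, 5 of the 9 genes (Hsph1, Hsp90aa1, Hspa8, Dnaja1 and Hspa5) had their lowest group mean at CT6 in both genotypes, as did 8.23% of all genes. The 2 cold-inducible genes had their highest mean at CT6 in both genotypes, as did 6.17% of all genes. The median CT18 minus CT6 difference was 0.11 over the 9 genes and 0.04 over all genes, of which 62.6% had a positive difference. At an unadjusted p under 0.05 the time test called 8 of the 9 genes, beside 16.1% of all genes. The genes were chosen with earlier results of these data known. Some also vary together across the arrays, such as Hsph1 and Hsp90aa1 (Pearson's r = 0.90). Counts of this kind are therefore descriptions, not separate results for each gene.

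Within 1 genotype the time test called none of the 9 genes by limma: 0 in knockout mice, beside 0.0702% of all genes, and 0 in control mice, beside 0.0602%. At an unadjusted p under 0.05 it called 4 of the 9 in knockout mice, beside 13.4% of all genes, and 2 in control mice, beside 5.8%. The test of whether the time course differed between the genotypes called 0 of the 9, beside 0.0% of all genes, and 0 of the 9 at an unadjusted p under 0.05, beside 2.98%.

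**Figure D2:**
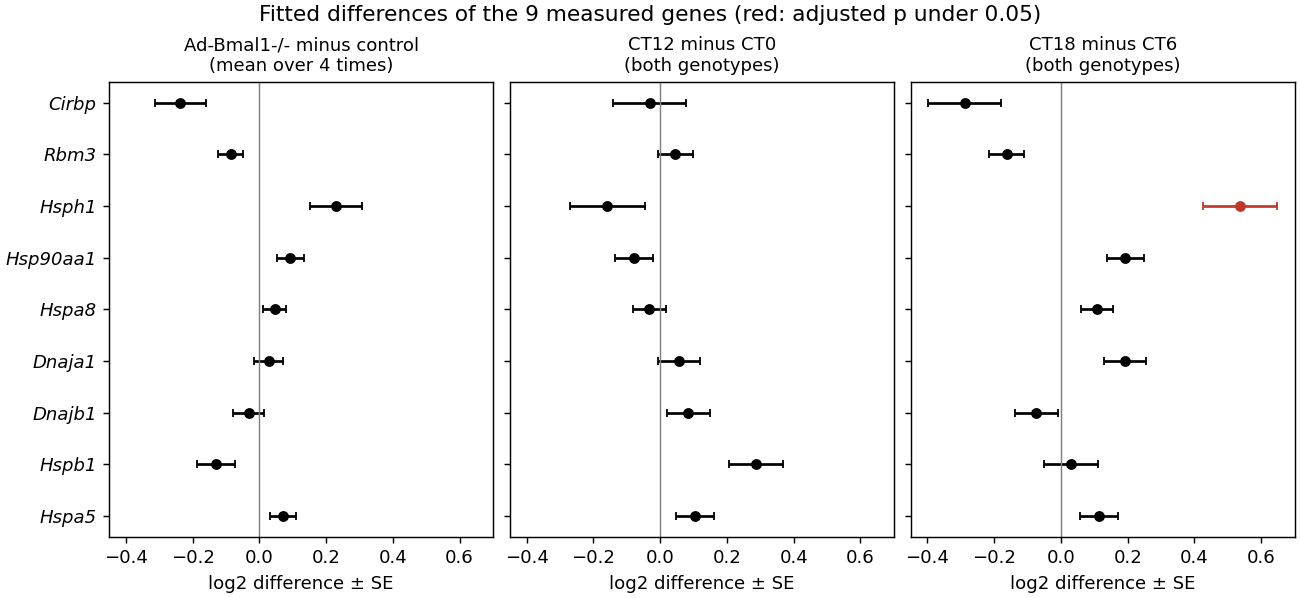
Fitted log2 differences (x axis) with their SE for the 9 measured genes: knockout minus control averaged over the 4 times, CT12 minus CT0 and CT18 minus CT6, the last 2 averaged over the genotypes. The red point marks the 1 difference with an adjusted p under 0.05, Hsph1 at CT18 minus CT6 (0.54 ± 0.11).

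Between the genotypes, none of the 9 genes passed when averaged over the day, beside 0.0201% of all genes called by limma. At an unadjusted p under 0.05 the count was 5 of 9, beside 6.07% of all genes. Because the genes were chosen with earlier results of these data known, this count is a description. The RNA is from whole pads, so that fewer cells of a type and less RNA per cell cannot be told apart.

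Cirbp was 0.24 ± 0.08 lower in knockout than in control pads (log2, SE, limma adjusted p = 0.562), which is 1.18-fold, and lay below the control mean of its time on 10 of 12 knockout arrays. The difference was negative at all 4 times, between -0.26 and -0.21, as it was for Rbm3 and Hspb1 (3 of 9 genes) and for 7.77% of all genes. At CT0 the knockout arrays of Cirbp and Rbm3 lay below the control arrays without overlap, as for 4.47% of all genes, yet for Cirbp 1 array made most of that gap: without knockout replicate 3 the CT0 difference was -0.06 ± 0.15 and the mean over the day -0.19 ± 0.07 (limma adjusted p = 0.545). With 1 array of its time left out, the Cirbp difference lay between -0.37 and -0.06 at CT0, -0.31 and -0.08 at CT6, -0.42 and -0.18 at CT12 and -0.32 and -0.11 at CT18, being nearest 0 at CT6 without control replicate 1, at CT12 without knockout replicate 2 and at CT18 without knockout replicate 1. Without the 4 arrays named above, Cirbp was at -0.30 ± 0.08 over the day (limma adjusted p = 0.101) and at -0.48 ± 0.17 at CT12. Those arrays were set apart because they lay nearer the other genotype, so leaving them out can widen a genotype difference. For every gene, the values without them are therefore not a separate check. Rbm3 was 0.09 ± 0.04 lower in knockout pads (limma adjusted p = 0.758), also on 10 of 12 arrays, a count or more that 4.78% of all genes reached, and at -0.11 ± 0.04 without those 4 arrays (adjusted p = 0.382).

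The 6 endothelial markers had their highest mean at CT6 and a negative genotype difference, as Cirbp had. In knockout pads their mean log2 level was 8.33 at CT0, 8.44 at CT6, 8.25 at CT12 and 8.34 at CT18. The control pads had 8.38 at CT0, 8.66 at CT6, 8.50 at CT12 and 8.54 at CT18. At CT6 the knockout arrays lay between 8.26 and 8.63 and the control arrays between 8.64 and 8.67. At CT12 they lay between 8.08 and 8.44 and between 8.47 and 8.52, while at CT0 and CT18 the ranges overlapped. Other marker lists had other shapes. Macrophage markers were at 8.31 in knockout and 8.57 in control pads at CT0, and at 8.81 and 8.64 at CT12. Lymphocyte markers were at 6.13 and 6.52 at CT6, and at 6.12 and 6.03 at CT12. All 6 endothelial markers had a negative knockout minus control difference over the day, with a median of -0.17, while 50.6% of all genes had a positive one. None of the 6 passed by limma over time or genotype. Their part in the Cirbp difference was not tested.

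Hsph1 was 0.23 ± 0.08 higher in knockout than in control pads (SE, limma adjusted p = 0.614), or 1.17-fold, on 9 of 12 knockout arrays against the control mean of their time. The knockout arrays lay above the control arrays without overlap at CT0, as for 6.28% of all genes, and at CT6, as for Hspa8 and 5.01% of all genes. At CT12 the difference was 0.43 ± 0.16, with knockout replicate 1 below and control replicate 1 above the other arrays of its genotype, and at CT18 it was -0.01 ± 0.16. Without those 4 arrays, Hsph1 differed by 0.34 ± 0.06 over the day (SE, limma adjusted p = 0.00638) and by 0.83 ± 0.12 at CT12 (adjusted p = 0.0128). Those arrays were singled out by the values of genes that differ by genotype on the others, Hsph1 included, so these p values are not independent of that choice. With 1 more of the other 20 arrays left out in turn, the adjusted p over the day was 0.00325 to 0.0277. The lowest of these was that without knockout replicate 2 at CT0. All of these fits also leave out the same 4 arrays, so they do not test that choice.

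The other chaperones differed less. Hsp90aa1 was 0.09 ± 0.04 higher in knockout pads and Hspa5 0.07 ± 0.04 higher, each above the control mean of its time on 11 of 12 arrays, as were 0.893% of all genes (limma adjusted p = 0.755 and 0.889). At CT12 the knockout arrays of Hspa5 lay above the control arrays without overlap, as for 2.97% of all genes. Hspb1 was 0.13 ± 0.06 lower (limma adjusted p = 0.771), below that mean on 10 of 12 arrays. For Hspa8 the difference was 0.05 ± 0.03, for Dnaja1 0.03 ± 0.04 and for Dnajb1 -0.03 ± 0.05, with adjusted p values of 0.944 to 0.981. Without the 4 arrays Hsp90aa1 was at 0.12 ± 0.04 (adjusted p = 0.259), Hspb1 at -0.16 ± 0.06 (0.380), Hspa5 at 0.07 ± 0.05 (0.741) and Hspa8 at 0.06 ± 0.04 (0.695), while Dnaja1 and Dnajb1 had adjusted p values of 0.995 and 0.982. The median difference was 0.03 over the 9 genes and 0.00 over all genes, of which 50.6% had a positive difference.

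At single times limma called 0 of the 9 genes, beside 0.0% of all genes at CT0, 0.0% at CT6, 0.0% at CT12 and 0.00502% at CT18. At an unadjusted p under 0.05 the calls among the 9 were Rbm3 at CT0 (beside 5.55% of all genes), none at CT6 (3.77%), Hsph1 at CT12 (2.49%) and none at CT18 (6.05%).

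**Figure D3:**
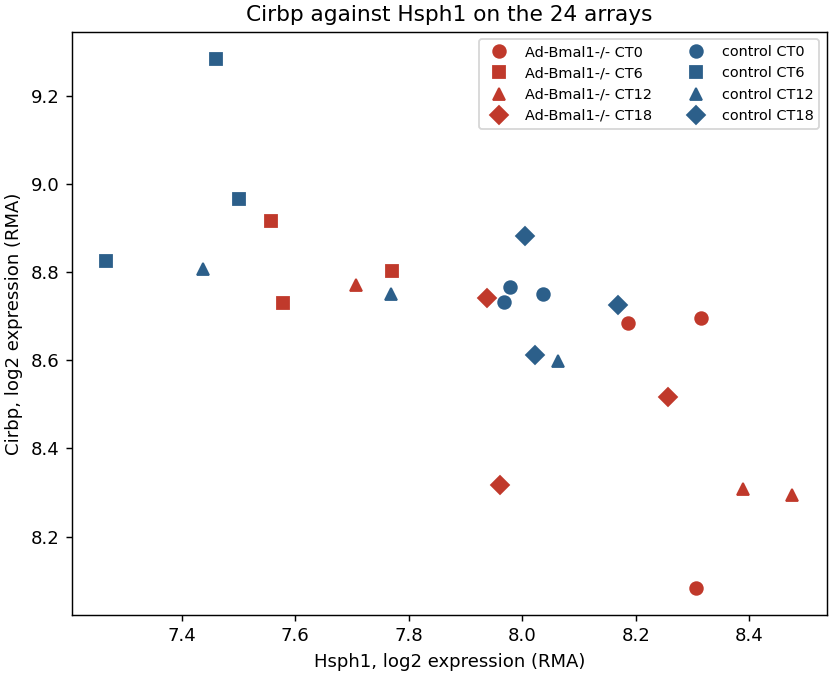
Log2 expression of Cirbp (y axis) against that of Hsph1 (x axis) on each of the 24 arrays, with knockout in red and control in blue, and a symbol for each circadian time. The CT6 arrays sit at low Hsph1 and high Cirbp, and the lowest Cirbp value, 8.08, is that of knockout replicate 3 at CT0.

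Across the 24 arrays Cirbp ran against Hsph1, Hspa8, Hsp90aa1 and Hspa5, with Pearson's r between -0.71 and -0.66, while with Hspb1 r was 0.32. Pearson's r between Cirbp and Hsph1 was -0.71 and Spearman's rho -0.80, and r was -0.43 once each group's mean was removed. The arrays share their groups and their normalization, so these values are descriptions. Of all genes, the 3 whose values followed Hsph1 most closely were Hsp90aa1 (r = 0.90, and 0.78 after the group means were removed), Caprin1 (0.82) and Rbm28 (0.80). For Cirbp they were Zfp580 (0.72), Dcp1b (0.70) and Efna1 (0.68), for Rbm3 Inca1 (0.71), Vti1a (0.70) and Akip1 (0.69), and for Hspa5 Ap1g1 (0.81), Ap3b1 (0.79) and Recql (0.75), all over 24 arrays.

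Several of these genes have copies or relatives elsewhere in the genome, so that a probe set may read more than 1 transcript. A second probe set named for the gene alone correlated with the one used at r = 0.99 for Rbm3 and for Hspb1, 0.99 for Hsp90aa1, 0.98 for Hspa8 and 0.76 for Dnaja1, and a further one at 0.86 for Rbm3, 0.84 for Hsp90aa1 and 0.81 for Hspa8. The other 8 probe sets of Rbm3, Dnaja1, Hspa8, Hsp90aa1 and Hspb1 were tested on their own. None passed the time test, CT18 minus CT6 or the genotype test. For CT18 minus CT6 and the genotype mean, all had the direction of the probe set used. At single times some did not: the other Dnaja1 probe set differed by 0.14 ± 0.11 between the genotypes at CT0, against -0.05 ± 0.09. An unadjusted p under 0.05 did not hold for all. By limma it was 0.016 and 0.171 for the other Hspa8 probe sets in the time test. For the genotype mean it was 0.00702 and 0.0619 for Rbm3, 0.0411 and 0.109 for Hsp90aa1 and 0.0777 for Hspb1. The Rbm3 probe set with the lower of these values was at -0.23 ± 0.06 for CT18 minus CT6 (limma adjusted p = 0.0637). At CT18 it differed by -0.26 ± 0.08 between the genotypes (limma unadjusted p = 0.0038, adjusted p = 0.753).

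**Figure D4:**
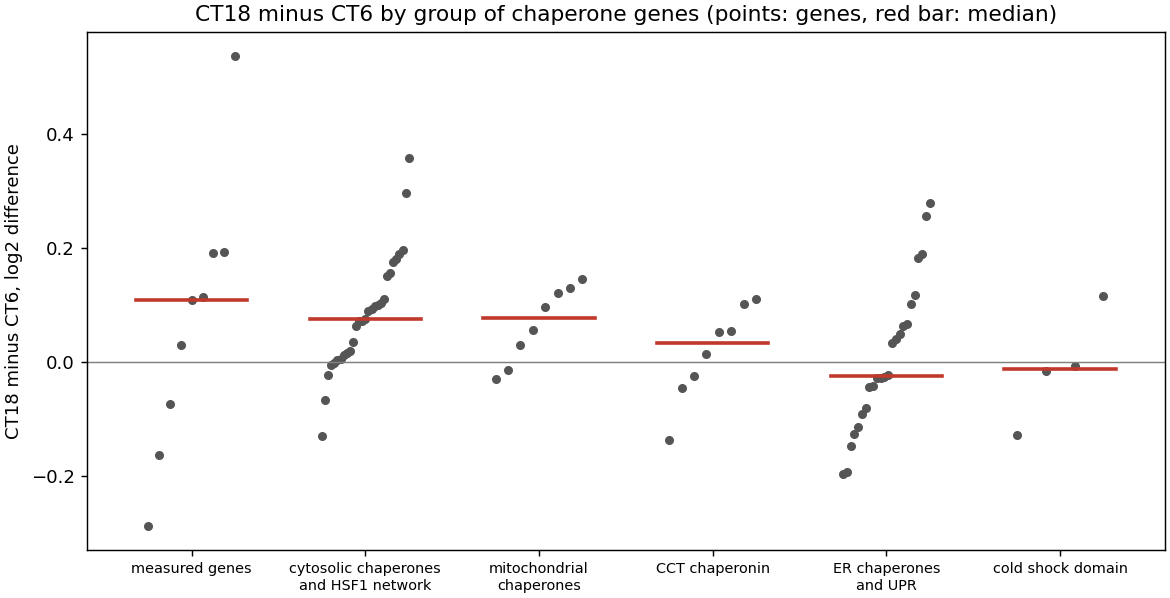
CT18 minus CT6 log2 differences over both genotypes (y axis) for the 9 measured genes and for 5 groups of related genes (x axis); each point is 1 gene and each red bar the median of its group. Most of the other cytosolic chaperone genes lie above 0, as do 62.6% of all genes, with a median of 0.08.

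Other genes of the same pathways gave no calls in the time and genotype tests. Of 32 further cytosolic chaperone genes and genes of the HSF1 network, 29 were measured, and limma called 0 of them over time and 0 between the genotypes. Their CT18 minus CT6 difference was positive for 24 and negative for 5, with a median of 0.08 beside 0.04 over all genes, of which 62.6% were positive. Hspa2, a testis-enriched HSP70, was at 0.36 ± 0.10 (adjusted p = 0.0934), Serpinh1, the collagen chaperone, at 0.30 ± 0.09 (0.128), Ahsa1, an activator of HSP90, at 0.19 ± 0.08 (0.232) and Hspa4l, an HSP110 relative, at 0.02 ± 0.09 (0.934).

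Of 24 ER chaperone and unfolded protein response genes, 11 had a positive and 13 a negative CT18 minus CT6 difference, beside 62.6% of all genes positive. Their median was -0.03, with 0 calls. For CT12 minus CT0, Calr, which retains glycoproteins in the ER, was at -0.26 ± 0.06 (limma adjusted p = 0.0564) and Pdia6, a disulfide isomerase, at -0.23 ± 0.07 (0.150), against the positive value of Hspa5. The transcription factor Xbp1 was at -0.20 ± 0.07 for CT18 minus CT6 (0.178) and Hyou1, the HSP110 relative of the ER, at 0.19 ± 0.05 (0.0998).

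The 8 mitochondrial chaperone genes, the 8 subunits of the CCT chaperonin and 4 measured cold shock domain genes also held 0 calls by limma over time or genotype. Hspd1, the mitochondrial HSP60, was at 0.14 ± 0.05 for CT18 minus CT6 (adjusted p = 0.166), Hspa9 at 0.13 ± 0.05 (0.235) and Hspe1 at 0.12 ± 0.05 (0.280). All 8 CCT subunits had a positive knockout minus control difference, as did 50.6% of all genes, with a median of 0.05 beside 0.00 over all genes. The cold shock domain gene Ybx1, whose protein binds DNA and RNA, was at 0.11 ± 0.06 for CT18 minus CT6 (0.342).

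Markers of the cells of the pad gave the following. All 11 measured adipocyte markers lay above the median gene, and their mean per array lay between 10.01 and 10.70 on knockout arrays and between 10.36 and 10.80 on control arrays. The 8 epithelial markers averaged 7.39 on knockout replicate 2 at CT0, against at most 6.75 on a control array, and on the same knockout array smooth muscle markers were at 9.90 and adipocyte markers at 10.01, the lowest of all. Hsph1 had 8.19 on that array, beside 8.31 on each of the other 2 knockout arrays at CT0. Hspb1, at 8.60, and Dnajb1, at 6.41, had their lowest value of the 24 arrays there. Without that array Hspb1 differed by -0.11 ± 0.06 between the genotypes (limma adjusted p = 0.804). Smooth muscle markers averaged between 8.14 and 9.90 on knockout arrays and between 8.13 and 9.75 on control arrays, and their part in the differences above was not tested. Of the 11 adipocyte markers, limma called 1 in the time test, Pparg, the adipocyte transcription factor (adjusted p = 0.0037), which stood at -0.47 ± 0.10 for CT18 minus CT6. That difference was positive for 7 of the 11 and negative for 4, beside 62.6% of all genes positive, with a median of 0.01.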

How the data were processed

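RNA amplified from 50 ng of total RNA was hybridised to 24 Affymetrix mouse gene arrays, 1 per sample. The authors deposited log2 values per probe set, made with RMA per the submitters' processing notes; its version was not stated. Probe sets were named through the platform annotation: 21789 of 35556 had 1 symbol, 1621 several and 12146 none. The highest-mean probe set of each symbol gave 19938 genes.

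The 8 group means were fitted to all genes in R 4.3.3 by limma's lmFit and eBayes (version 3.58.1). P-values were adjusted by Benjamini-Hochberg across the whole table, with a threshold of 0.05 and no filter on dim genes. On simulated data the time test recovered 76.1% of genes with a peak-to-trough change of 0.5, and 98.5% at 1. Python 3.11.15 gave levels, overlaps and motif searches. Precision is limited by the 3 arrays per group. The genes and gene lists were chosen with earlier results of these data known. All named genes of the group are described; of each further list, the 4 with the smallest p in the time test were eligible, and the likest 3 genes for Cirbp, Rbm3, Hsph1 and Hspa5. The 37 alternative fits covered normalization, filters, probe sets, array weights, a replicate block and left-out arrays. The 4 steps between neighbouring times, the single probe sets and the left-out arrays beyond those 4 were added after the data were seen. Same-numbered arrays of the genotypes deviated together in 5 of 12 pairs (r over 0.1), so the numbers were not taken to pair animals.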

Additional observations from a re-analysis of the deposited data

Results flagged for a closer look

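Values of 2 comparisons between times were set apart because the arrays of the genotypes lay on opposite sides of a mean. Each array of the later or first-named time was set against its own genotype's mean at the other time. For Rbm3, all 3 knockout arrays of CT12 lay above the knockout mean of CT0, and all 3 control arrays of CT12 lay below the control mean of CT0. The difference between the genotypes in CT12 minus CT0 was 0.1455 (± 0.10, SE), with a limma unadjusted p of 0.176 and an adjusted p of 1.00. For Hsph1, all 3 knockout arrays of CT0 lay above the knockout mean of CT18, and all 3 control arrays of CT0 lay below the control mean of CT18. The difference between the genotypes in CT0 minus CT18 was 0.2887 (± 0.22, SE), with a limma unadjusted p of 0.208 and an adjusted p of 0.950. Neither difference passed the threshold, and within each genotype the arrays of the 2 times overlapped in both comparisons.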

How the results depend on the processing

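Counts of called genes among the 9 were unchanged under most alternatives. When the 4 arrays set apart in the results (both replicates 1 of CT12, both replicates 3 of CT18) were left out, the count was 1 for the genotype mean, 1 for genotype at CT12, 1 for time in knockout mice and 1 for time in control mice, all Hsph1, in place of 0. Of all 19938 genes, 139 were then called for the genotype mean and 10 for genotype at CT12, against 4 and 0 as reported. Time in knockout mice called 4 of all genes, against 14 as reported, and time in control mice 24, against 12. The choice of those 4 arrays drew on Hsph1 among other genes, so the Hsph1 calls without them are not a separate check. With array weights the time test called 2, Hsph1 and Hsp90aa1 (limma adjusted p = 0.0433), and CT12 minus CT0 called 1, Hspb1 (0.0433). With 1 array left out, the time test and CT18 minus CT6 each called 0 to 1 of the 9, and the time test called 0 without knockout replicate 1, knockout replicate 2 or control replicate 2 at CT6. The causes were not tested. No called value changed sign. With a replicate block no call among the 9 changed, and Hsph1 had adjusted p values of 0.0377 (time) and 0.0392 (CT18 minus CT6).

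Over all genes, the genotype mean called 4 as reported, 51 with array weights, 139 without those 4 arrays and 0 with quantile normalization, trend and robust fits or the block, and the time test called 176 as reported, 594 with array weights and 75 without those arrays. CT18 minus CT6 called 140, 238 with array weights and 28 without those arrays, CT12 minus CT0 106, 441 and 69.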
